A study of Mus musculus with 33 samples.

Results

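Type I interferon-stimulated genes were followed in Treg, the regulatory T cells that restrain immune responses, from the colon of mice. The set holds 44 genes, taken by symbol from a list of known interferon-induced genes, of 53465 genes in the count table. The rule uses no measured value, but the list was drawn up with earlier results of these data known. All 44 matched 1 gene identifier each, on 15 chromosomes, and all 44 passed the filter on low counts. The study, by its title, asks how TSLP and IL-33 act on Treg during colorectal cancer progression, and Treg were sorted by the receptors of these cytokines, TSLPR and ST2. RNA was sequenced from 32 Treg libraries of 200 sorted cells each. They come from 8 mice, 4 naive (mice 1 to 4) and 4 with colitis-associated cancer (mice 5 to 8), and each mouse gave 4 sorting gates. These hold cells with neither receptor (TSLPR-ST2-), with ST2 alone (TSLPR-ST2+), with TSLPR alone (TSLPR+ST2-) or with both (TSLPR+ST2+). One further library holds Foxp3-negative CD44low T cells of another naive mouse, by the series' design.

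All mice were of the genotype Foxp3-yfp B6, in which a yellow fluorescent protein marks the Foxp3-expressing Treg, and the labels give an age of 7 to 12 weeks at purchase. The cancer mice had 1 injection of azoxymethane (AOM, 10 mg/kg), a carcinogen, then 3 cycles of 7 days of dextran sulfate sodium (DSS), which injures the colon lining, and were taken 2 weeks after the last DSS. No group had AOM or DSS alone, so tumours, earlier colitis and the chemicals cannot be told apart in what follows. The labels do not say whether naive mice were mock treated, or on which days each group was sorted and sequenced.

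Type I interferons are secreted by cells that sense foreign or misplaced nucleic acid and act on a receptor of the chains Ifnar1 and Ifnar2, present on nearly all cells. The receptor's kinases phosphorylate factors such as Stat2, which joins Irf9 in the complex ISGF3, and ISGF3 binds the interferon-stimulated response element (ISRE) of its target genes. The targets include antiviral effectors, sensors of viral RNA, the signalling factors themselves and inhibitors such as Usp18. Many are transcribed at a low tonic level without infection, which in the gut depends in part on the microbiota.

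The response element is visible in the promoters. RefSeq promoters (GRCm38.p6, 250 bases before to 50 after the start of transcription) were at hand for 34 of the 44 genes. The ISRE was searched as GAAA, any 2 bases (NN) and GAAA, and as its reverse complement of TTTC, NN and TTTC, and the interferon-gamma element GAS as TTCNNNGAA, which is its own reverse complement, and matches may overlap. An ISRE match stood in the promoter of 14 of 34 members (41.2%), against 1079 of all 27025 genes with an entry (3.99%). A GAS match stood in 7 members (20.6%), against 9.55% of all genes. The 250 bases before the start are printed for 4 genes that fell in cancer and hold an ISRE match, to show the element that these genes share. Ifi47, the gene highest per length among those that did not pass, follows, and its window has no match. The 4 were picked by their fall, and Oas1a, which did not pass, also holds 2 matches. Capitals mark the ISRE matches, each line runs 5′ to 3′ on the gene's strand, and the positions are Ifit3 chr19:34583279-34583528 (+), Ifit3b chr19:34607707-34607956 (+), Ifit1 chr19:34640639-34640888 (+), Isg15 chr4:156200819-156201068 (-), Ifi47 chr11:49076337-49076586 (+).
Ifit3: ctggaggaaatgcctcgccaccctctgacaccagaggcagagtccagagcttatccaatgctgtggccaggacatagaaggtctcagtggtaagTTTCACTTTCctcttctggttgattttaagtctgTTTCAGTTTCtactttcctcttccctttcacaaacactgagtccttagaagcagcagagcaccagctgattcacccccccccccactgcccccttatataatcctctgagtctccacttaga
Ifit3b: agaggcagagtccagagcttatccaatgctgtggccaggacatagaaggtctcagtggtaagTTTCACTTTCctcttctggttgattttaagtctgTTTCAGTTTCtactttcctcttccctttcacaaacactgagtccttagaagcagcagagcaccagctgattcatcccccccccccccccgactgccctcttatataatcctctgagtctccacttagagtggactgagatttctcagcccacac
Ifit1: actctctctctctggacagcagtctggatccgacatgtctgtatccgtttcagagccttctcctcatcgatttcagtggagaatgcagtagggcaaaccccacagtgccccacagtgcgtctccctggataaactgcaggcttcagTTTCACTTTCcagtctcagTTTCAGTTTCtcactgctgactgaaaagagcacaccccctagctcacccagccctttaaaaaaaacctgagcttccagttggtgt
Isg15: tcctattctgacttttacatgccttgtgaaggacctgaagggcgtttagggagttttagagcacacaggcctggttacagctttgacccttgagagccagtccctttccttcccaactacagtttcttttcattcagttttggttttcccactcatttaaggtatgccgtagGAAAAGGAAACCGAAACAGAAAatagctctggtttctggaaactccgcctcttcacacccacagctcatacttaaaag
Ifi47: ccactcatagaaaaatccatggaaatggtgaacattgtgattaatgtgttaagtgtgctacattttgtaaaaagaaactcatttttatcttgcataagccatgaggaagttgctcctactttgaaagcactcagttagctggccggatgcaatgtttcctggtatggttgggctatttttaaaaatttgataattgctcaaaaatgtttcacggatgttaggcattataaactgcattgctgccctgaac

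The matches begin 156 and 122 bases before the start in Ifit3, 188 and 154 in its neighbour Ifit3b and 104 and 85 in Ifit1. In Isg15 3 overlapping matches begin 78, 72 and 66 bases before the start and read as 1 run of capitals. A match is a description of letters and not a measured binding site, and binding was not measured here.

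Library totals ran from 4038718 to 8839946 counts. Gene levels are given as counts per 1000000 (CPM) on totals scaled by the trimmed mean of M-values (TMM). Foxp3, the factor that defines Treg, was found in all libraries, between 59.9 and 222 CPM. Il1rl1, the ST2 gene, ranged from 95.6 to 309 CPM in ST2+ libraries and reached at most 11.0 in ST2- libraries. Crlf2, the TSLPR gene, went against its gates in cancer mouse 5, with 30.5 CPM in its TSLPR-ST2+ and 25.2 in its TSLPR+ST2+ library. By markers of other cells, the TSLPR+ST2+ library of cancer mouse 7 stood apart (epithelial, 12738 CPM summed over 10 genes). The TSLPR-ST2+ library of naive mouse 3 had the highest macrophage and dendritic sum (2659 CPM over 14 genes). Others came near it, with 2217 CPM in TSLPR+ST2+ of naive mouse 1 and 2044 in TSLPR-ST2+ of cancer mouse 8. Whether the 2 libraries of mouse 5 were exchanged was not tested, and if they were, the values of mouse 5 in these gates and its part in counts of mice by TSLPR would change. Counts of called genes are given with and without 4 libraries, the 2 of mouse 5, that of mouse 7 and that of naive mouse 3. They are named below as the libraries that stood apart, a choice made after the data were seen. The TSLPR+ST2+ library of cancer mouse 6 was kept. It was the highest in B and plasma cell (849 CPM over 8 genes) and plasmacytoid dendritic markers (745 CPM over 11 genes). Gene positions are those of GENCODE M21 on GRCm38.

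The first comparison asked how the genes differ between Treg of cancer and naive mice, with the 4 gates of a mouse summed. Interferon-stimulated genes were lower in cancer. Of the 44 genes, 20 fell (edgeR quasi-likelihood test, Benjamini-Hochberg adjusted p under 0.05 over all 15338 genes tested), where 0.926% of all genes fell, and 24 did not pass. The 39 genes with an unadjusted p under 0.05 were all lower in cancer, and 41 of 44 had a fold change below 0 on the log2 scale. Their median log2 fold change was -0.53, against 0.01 over all genes. In 34 of 44 genes every cancer mouse lay below every naive mouse, a pattern shown by 5.8% of all genes tested. The mean level over the 44 genes was 7.37, 7.43, 7.56 and 7.33 log2 CPM in naive mice 1 to 4 and 6.86, 6.74, 6.80 and 6.93 in cancer mice 5 to 8, with no overlap. Without the 4 libraries that stood apart, 24 genes fell, with a median of -0.59. In such bulk RNA, fewer expressing cells and less RNA per cell cannot be told apart.

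**Figure D1:**
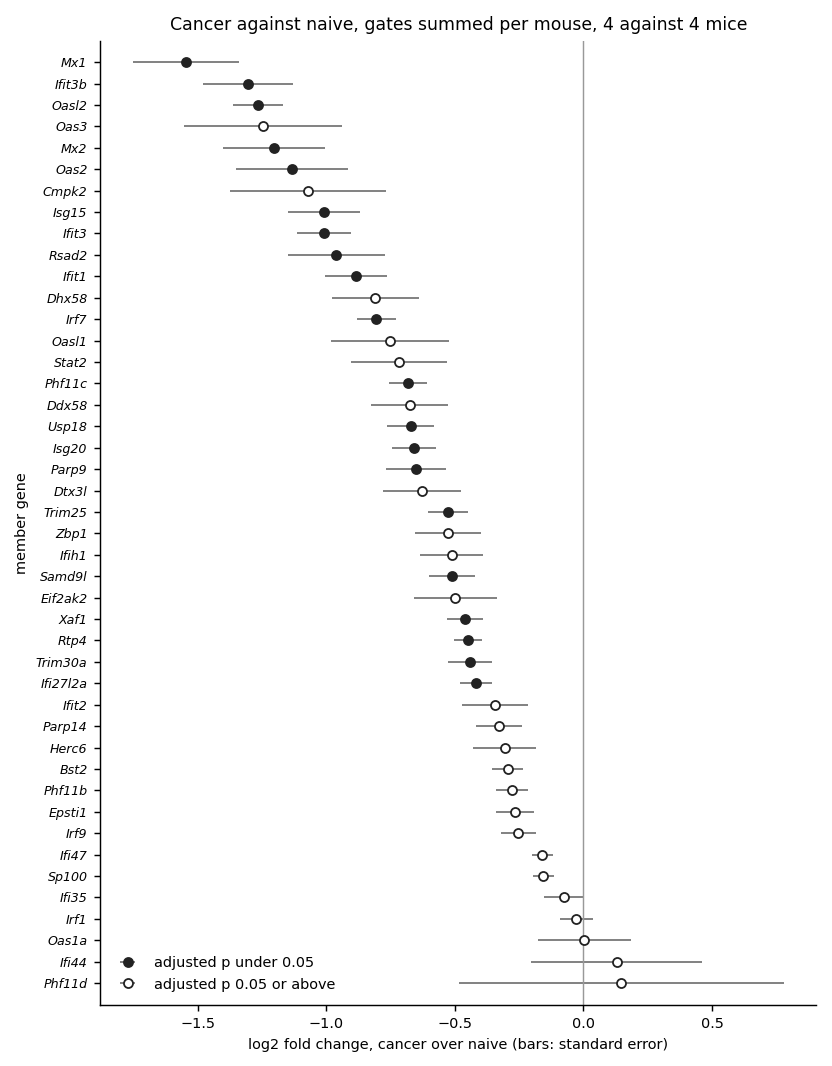
The log2 fold change of cancer over naive mice (x axis) for each of the 44 genes (rows), from counts summed per mouse, 4 against 4 mice, with standard errors as bars and filled points for adjusted p under 0.05. Points run from -1.55 for Mx1 to 0.15 for Phf11d, and 41 of 44 lie left of 0.

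Among the transcription factors, Irf7 fell and Irf1 did not change detectably. Irf7, the factor that drives most interferon-alpha genes (chromosome 7, 141262706 to 141266481, - strand), stood at 651, 611, 697 and 602 CPM in the naive mice and 372, 330.0, 354 and 409 in the cancer mice. Naive and cancer mice did not overlap. The fall was 1.75-fold (log2 -0.81, SE 0.076, adjusted p = 0.00351). Irf1, a factor induced by both interferon types, had 594, 645, 657 and 581 CPM in naive and 654, 613, 557 and 607 in cancer mice, which overlap (log2 fold change -0.03, SE 0.064, adjusted p = 0.882). The ISGF3 subunits Stat2 and Irf9 did not pass: Stat2 averaged 194 ± 30.8 CPM in naive and 118 ± 29.7 in cancer mice (SD, n = 4 each, adjusted p = 0.100), and Irf9 513 ± 22.3 and 430.2 ± 37.5 (adjusted p = 0.108). For both, each cancer mouse nevertheless lay below each naive mouse.

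Both Mx genes fell. Mx1, a dynamin-like GTPase that blocks virus replication and is defective in many laboratory strains (chromosome 16, 97447035 to 97462907, - strand), had 109, 121, 102 and 69.9 CPM in naive and 34.1, 23.8, 39.9 and 39.5 in cancer mice. It fell 2.92-fold (log2 -1.55, SE 0.21, adjusted p = 0.0161), the lowest fold change of the 44. Its neighbour Mx2, annotated as a polymorphic pseudogene, fell 2.30-fold from 44.2 ± 4.51 to 19.2 ± 5.18 CPM (adjusted p = 0.0288). In both genes the 2 groups of mice were apart.

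The 2′-5′-oligoadenylate synthetases make the messenger that switches on RNase L when they bind double-stranded RNA, and the synthetase-like Oasl proteins are their relatives. Oasl2 (chromosome 5, 114896936 to 114912234, + strand) stood at 159, 174, 175 and 144 CPM in naive and 66.0, 65.1, 62.2 and 77.7 in cancer mice. The lowest naive mouse was well above the highest cancer mouse, and the fall was 2.40-fold (log2 -1.27, SE 0.098, adjusted p = 0.00190). Oas2 fell 2.19-fold, from 85.2 ± 19.8 to 38.8 ± 10.2 CPM (adjusted p = 0.0439). Oas3 averaged 48.2 ± 23.4 and 20.3 ± 4.54 CPM and Oasl1 74.0 ± 25.6 and 43.9 ± 5.93, with adjusted p of 0.0896 and 0.142, neither past the limit. In both of these naive mouse 3 was the highest, at 82.5 and 108 CPM. Oas1a did not share in these lower levels, with 86.4, 95.4, 106 and 76.7 CPM in naive and 82.5, 63.2, 106 and 113 in cancer mice (log2 0.00, SE 0.18, adjusted p = 0.997). Its groups overlapped.

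The Ifit proteins bind viral RNA ends and lie side by side on chromosome 19. Ifit3 (chromosome 19, 34583531 to 34588731, + strand) had 258, 318, 354 and 299.9 CPM in naive and 157, 157, 134 and 164 in cancer mice and fell 2.01-fold (log2 -1.01, SE 0.10, adjusted p = 0.00512). Ifit3b, its near copy (chromosome 19, 34607970 to 34613401, + strand), had 90.2, 71.6, 113 and 79.0 CPM in naive and 44.3, 28.8, 34.5 and 35.8 in cancer mice and fell 2.47-fold (adjusted p = 0.0161). Ifit1 (chromosome 19, 34640871 to 34650009, + strand), which sequesters RNA lacking cap methylation, had 487, 522, 549 and 480.3 CPM in naive and 296, 209.8, 274 and 325 in cancer mice, a 1.84-fold fall (log2 -0.88, SE 0.12, adjusted p = 0.0162). In these 3 genes the groups were apart. The fourth of the cluster, Ifit2, overlapped between groups, with 91.3 ± 11.6 and 71.9 ± 10.2 CPM (adjusted p = 0.214).

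Isg20, an exonuclease that degrades RNA (chromosome 7, 78913424 to 78920396, + strand), had 236, 234, 247 and 234 CPM in naive mice, a narrow range, and 169.8, 130.1, 143 and 159 in cancer mice. It fell 1.58-fold (log2 -0.66, SE 0.085, adjusted p = 0.0131). Rsad2, which encodes viperin, an enzyme that makes a chain-terminating nucleotide, fell 1.95-fold from 100.0 ± 30.2 to 51.4 ± 3.65 CPM (adjusted p = 0.0492), close to the limit. Cmpk2, the kinase beside it on chromosome 12, did not pass (89.1 ± 40.5 and 42.4 ± 11.3 CPM, adjusted p = 0.120), with 1 naive mouse at 148 CPM. Samd9l, a restriction factor, fell 1.43-fold (451 ± 49.6 to 316 ± 23.2 CPM, adjusted p = 0.0322). The double-stranded RNA kinase Eif2ak2 (66.5 ± 12.5 and 47.0 ± 7.50 CPM, adjusted p = 0.163) and the Z-nucleic acid sensor Zbp1 (253 ± 45.6 and 175 ± 20.7, adjusted p = 0.0896) did not pass. Bst2, or tetherin, which holds budding virus at the cell surface, had 252, 265, 273 and 249 CPM in naive and 223, 199, 210.0 and 215 in cancer mice. Every cancer mouse was below every naive mouse, but the adjusted p of 0.0534 missed the limit (log2 -0.29, SE 0.060).

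Isg15, a ubiquitin-like protein joined to other proteins (chromosome 4, 156199424 to 156200818, - strand), and its remover Usp18 fell, while its ligase Herc6 did not pass. Isg15 stood at 145, 171, 183 and 145 CPM in naive and 84.6, 68.2, 67.8 and 98.9 in cancer mice. The groups were apart, and the fall was 2.01-fold (log2 -1.01, SE 0.14, adjusted p = 0.0164). Usp18, which removes Isg15 and blocks the interferon receptor (chromosome 6, 121245906 to 121270917, + strand), had 378, 386, 379.5 and 329.7 CPM in naive and 227, 236, 198 and 264 in cancer mice and fell 1.59-fold (log2 -0.67, SE 0.091, adjusted p = 0.0162). Herc6, the mouse ligase for Isg15, averaged 59.5 ± 4.62 and 48.1 ± 6.88 CPM (adjusted p = 0.246). Trim25, a ubiquitin ligase that activates the RNA sensor RIG-I (chromosome 11, 88999376 to 89020293, + strand), had 164, 156, 151 and 137 CPM in naive and 109, 99.2, 103 and 111 in cancer mice, a 1.44-fold fall (log2 -0.53, SE 0.077, adjusted p = 0.0194).

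The cytosolic RNA sensors themselves did not pass when the gates were summed. Ddx58, which encodes RIG-I, averaged 240.3 ± 34.1 CPM in naive and 150.3 ± 31.7 in cancer mice (adjusted p = 0.0683), Ifih1, which encodes MDA5, 67.6 ± 8.26 and 47.3 ± 5.40 (adjusted p = 0.0857), and Dhx58, which encodes LGP2, 136 ± 33.0 and 77.8 ± 11.2 (adjusted p = 0.0563). In all 3 each cancer mouse lay below each naive mouse.

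Of the remaining genes, Rtp4, which restrains viral RNA production (chromosome 16, 23520291 to 23614222, + strand), had 355.998, 368, 336 and 364 CPM in naive and 270.5, 247, 258 and 266 in cancer mice and fell 1.37-fold (log2 -0.45, SE 0.055, adjusted p = 0.0108). Phf11c, one of a cluster of plant homeodomain finger genes (chromosome 14, 59380833 to 59395381, - strand), had 185, 172, 191 and 178 CPM in naive and 118, 103, 109 and 122 in cancer mice and fell 1.60-fold (log2 -0.68, SE 0.074, adjusted p = 0.00641). Both genes were apart between the groups, with little spread within them. Its neighbour Phf11b had 261, 272, 278 and 269.5 CPM in naive and 227, 208, 214 and 242 in cancer mice. These did not overlap either, yet Phf11b did not pass (log2 -0.28, SE 0.063, adjusted p = 0.0717), and Phf11d was low, at 4.81 and 5.33 CPM (adjusted p = 0.943). Ifi27l2a, a small mitochondrial interferon product and per kilobase of exon the highest of the 44 (2791 CPM per kb in naive mice), fell 1.33-fold from 1292 ± 107 to 968 ± 35.4 CPM (adjusted p = 0.0204).

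Falls were also found for Xaf1, an antagonist of the apoptosis inhibitor XIAP (1.38-fold, adjusted p = 0.0214), Trim30a, a tripartite motif protein (1.36-fold, adjusted p = 0.0446), and Parp9, a partner of the ubiquitin ligase Dtx3l (1.57-fold, adjusted p = 0.0346). Dtx3l itself (239 ± 57.7 and 154 ± 15.6 CPM, adjusted p = 0.0845) and their relative Parp14 (235 ± 21.8 and 188 ± 17.4, adjusted p = 0.112) did not pass. Epsti1 was also below in every cancer mouse without passing (221 ± 13.4 and 184 ± 13.8 CPM, adjusted p = 0.117). Ifi47, an interferon-inducible GTPase (chromosome 11, 49076587 to 49096974, + strand) and second per kilobase at 367 CPM per kb in naive mice, had 911, 926, 874 and 923 CPM in naive and 811, 787, 815 and 839.7 in cancer mice. The groups were apart but by little (log2 -0.16, SE 0.041, adjusted p = 0.100). The nuclear body protein Sp100 was similar (log2 -0.16, SE 0.040, adjusted p = 0.0999). Ifi35, a leucine zipper protein (log2 -0.08, adjusted p = 0.685), and the low Ifi44 (17.7 and 19.4 CPM, adjusted p = 0.895) overlapped between the groups.

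**Figure D2:**
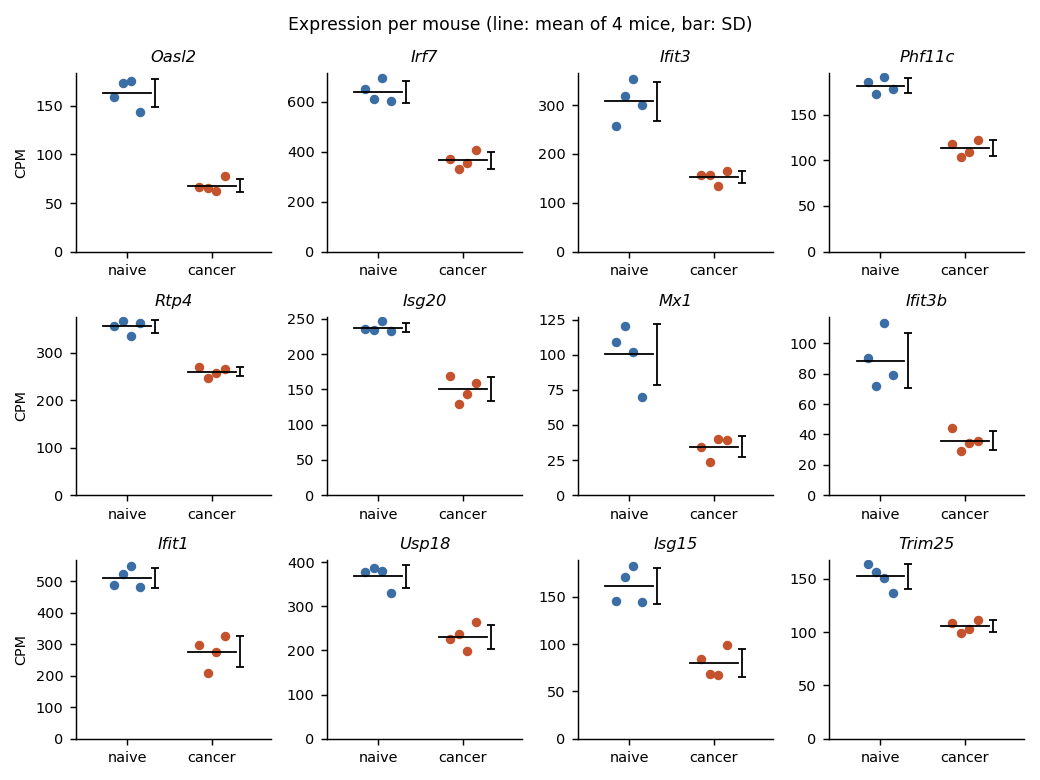
CPM (y axis, from 0) in each mouse, gates summed, for the 12 genes with the smallest p, with 4 naive mice in blue and 4 cancer mice in orange, a line at each mean and a bar of 1 SD. In all 12 panels the cancer mice lie below the naive mice, for instance 330.0 to 409 against 602 to 697 CPM for Irf7.

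The genes are not independent in position or sequence. In 7 clusters, with members within 200 kb of the next, lie 19 of the 44 genes, and within clusters the calls were mixed: 3 of 4 Ifit genes, both Mx genes, 1 of 3 Oas genes, 1 of 3 Phf11 genes and 1 of the pair Oasl1 and Oasl2 fell. Of the 58-base windows of its transcripts, the length of a read, Ifit3 shares 47.7% with Ifit3b, Oas1a 53.7% with Oas1g, and Phf11b 39.8% with other genes, mainly Phf11a. Reads in such windows may have been dropped or split, so these genes' levels are uncertain, and 13 of 44 share over 5% of their windows. Parp9 and Dtx3l overlap on opposite strands (7.36% of the windows of Parp9), and without strand information their reads there cannot be told apart (the labels give no strand setting). The 14 genes with an ISRE match had a median log2 fold change of -0.70 (6 fell) and the 20 without a match in their window -0.40 (7 fell), as a description with no test. Irf7 and Oasl2 were among those without these letters in the window, and Oas1a, at a log2 fold change of 0.00, was among those with them. The 10 genes with no promoter entry were Parp9, Oas2, Mx2, Zbp1, Dhx58, Usp18, Ifi27l2a, Parp14, Mx1 and Rtp4.

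Other measures moved with status in the same mice. The share of mitochondrial counts was 0.775 to 1.15% in naive and 1.39 to 1.88% in cancer mice. With its log2 value as a covariate, edgeR called 0 of the 44 genes and 0 of all genes, of which 1346 had an unadjusted p under 0.05. The median log2 fold change of the 44 was then -0.23, with 36 below 0. Macrophage and dendritic cell markers (14 genes) summed to 799 to 1221 CPM in naive and 298 to 754 in cancer mice, and 2 of 13 tested, Cd68 and C1qb, fell. Most of the sum was Lyz2, with means of 649 and 322 CPM, which did not pass (edgeR, adjusted p = 0.208). Of the 13, 9 had a log2 fold change below 0, while Adgre1, Cd14, Itgax and Xcr1, all low, lay above 0 without passing. Epithelial markers (10 genes) summed to 78.4 to 121 CPM in naive and 98.0 to 2428 in cancer mice, and 0 of 9 tested passed by edgeR, with 7 at an unadjusted p under 0.05 and 1 called lower by DESeq2. Their median log2 fold change was 4.49, with 1 of 9 below 0 (Muc2). Mouse 7 weighed most in this, for instance with 1716 CPM of Car1 against 12.8 to 75.0 in the other cancer mice. Of 9 Treg markers Il2ra, a chain of the IL-2 receptor, fell 1.52-fold (adjusted p = 0.0131), and Foxp3 had a log2 fold change of -0.38 (adjusted p = 0.155). Plasmacytoid dendritic cell markers (11 genes) overlapped, at 225 to 313 and 186 to 328 CPM, and 1 of 11, Pacsin1, fell. Most of this sum was Pacsin1 (means of 111 CPM in naive and 81.7 in cancer mice) and Ccr9 (75.2 and 61.4), while Siglech had 16.8 and 13.6. Whether Pacsin1 and Ccr9 RNA came from Treg or from plasmacytoid dendritic cells was not tested. In the TSLPR-ST2- gate, described next, the macrophage and dendritic sum was 13.4 to 161 CPM in naive and 3.39 to 69.7 in cancer libraries. Lyz2 had the highest mean of the list in both groups, at 60.6 ± 61.3 and 10.7 ± 12.5 CPM, while Cd14, Cd209a, Fcgr1 and Itgax had no count in naive and Cd209a and Fcgr1 had none in cancer libraries. The part of these cell markers in the result was not tested. Each mouse in turn was then left out: 11 genes fell without naive mouse 1, 7 without mouse 2, 11 without mouse 4, 8 without cancer mouse 6 and 12 without mouse 7. Of all genes, 69, 37, 38, 28 and 57 were called in these fits in either direction, against 186 with all mice. Oasl2, Irf7, Ifit3, Phf11c, Rtp4 and Isg20 passed in all 8 leave-outs.

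Next, cancer was compared with naive within each gate. In TSLPR-ST2- Treg, which show neither receptor, 10 of the 44 genes fell: Isg15, Irf7, Rsad2, Mx1, Ifit3, Isg20, Ifi27l2a, Rtp4, Parp9 and Phf11c. Of all 14861 genes tested there, 0.148% fell. The median log2 fold change of the 44 was -0.73, and in 34 of 44 the cancer libraries all lay below the naive ones (2.99% of all genes). Isg15 had 181, 180.4, 185 and 191 CPM in naive and 64.6, 61.2, 61.9 and 64.6 in cancer libraries, 2 tight groups far apart (2.92-fold, log2 -1.55, SE 0.22, adjusted p = 0.000629). Rsad2 had 109, 68.2, 132 and 100.3 in naive and 31.0, 21.1, 12.7 and 15.3 in cancer libraries, also apart (5.11-fold, log2 -2.35, SE 0.39, adjusted p = 0.00418). Irf7 had 823, 759, 816 and 688 CPM in naive and 487, 332, 341 and 409.7 in cancer libraries (1.97-fold, adjusted p = 0.000629). Mx1 showed the steepest fall of the 10, from 110.0 ± 39.2 to 15.9 ± 16.1 CPM (SD, n = 4 each, 6.92-fold, adjusted p = 0.0123). Isg15, Irf7 and Rsad2 kept the call in each leave-out of a mouse. The count fell to 4 without mouse 1 or mouse 4, 6 without mouse 2 or mouse 5 and 5 without mouse 6 or mouse 7, and 11 fell without the libraries that stood apart. With the mitochondrial share as a covariate in edgeR, Parp9 and Phf11c lost the call (adjusted p = 0.134 and 0.188). The rest of the 10 kept it.

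In TSLPR-ST2+ Treg 5 of 44 genes fell (Irf7, Isg15, Rtp4, Samd9l and Phf11c), against 0.155% of all genes, with a median log2 fold change of -0.49. In 17 genes all cancer libraries lay below all naive ones (2.11% of all genes). Irf7 had 637, 641, 617 and 765 CPM in naive and 392, 361, 354 and 419 in cancer libraries (1.74-fold, adjusted p = 0.00825). Rtp4 had 387, 415, 343 and 425 CPM in naive and 242, 255, 253 and 230.0 in cancer libraries (1.60-fold, adjusted p = 0.0160). Both were apart between the groups. Samd9l fell 1.76-fold (adjusted p = 0.0199), although the library of naive mouse 3, at 267 CPM, lay within the cancer range. Macrophage and dendritic markers summed to 603 to 2659 CPM in naive and 319 to 2044 in cancer libraries, and their part in the result was not tested. The count was 0 without mouse 1 or mouse 4, 1 without mouse 2, 3 without mouse 5 or mouse 8. It was 0 when only the 8 libraries of the gate were fitted, where edgeR gave an unadjusted p under 0.05 to 611 of all genes, and DESeq2 on all 32 libraries called 10. Without the libraries that stood apart, 4 genes fell. With the mitochondrial share as a covariate in edgeR, the 5 genes kept the call, and Ifi27l2a passed as well (adjusted p = 0.0238).

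In TSLPR+ST2- Treg Irf7 was the 1 gene of 44 that fell, where 0.0202% of all genes fell. It had 591, 482, 655 and 474 CPM in naive and 297, 319, 326 and 389 in cancer libraries, with no overlap (1.65-fold, log2 -0.73, SE 0.14, adjusted p = 0.0280). The next by p did not pass: Ifi27l2a had 1476 ± 43.7 and 1049 ± 56.3 CPM (adjusted p = 0.116) and Isg15 172 ± 18.3 and 90.5 ± 26.9 (adjusted p = 0.138). The median log2 fold change of the 44 was still -0.47, and in 19 genes all cancer libraries lay below all naive ones (4.02% of all genes). The Irf7 call was lost in each leave-out of a mouse and with no low-count filter. The 1 gene of the 44 called in a leave-out was Rsad2. With the mitochondrial share as a covariate, edgeR gave an adjusted p of 0.0832 for Irf7 and 0.00306 for Ifi27l2a. DESeq2 called 5 genes, and 2 fell without the libraries that stood apart.

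In TSLPR+ST2+ Treg, which show both receptors, 4 of 44 genes fell, namely Ddx58, Irf7, Ifit3 and Stat2, where 2.5% of all genes fell. Ddx58 had 209, 215, 324 and 243 CPM in naive and 71.0, 78.1, 90.6 and 164 in cancer libraries (2.45-fold, log2 -1.29, SE 0.26, adjusted p = 0.00550). Irf7 had 546, 582, 677 and 503 CPM in naive and 282, 311, 429 and 420.0 in cancer libraries (1.60-fold, adjusted p = 0.00573). Ifit3 had 193, 309, 408 and 176 CPM in naive and 151, 68.5, 69.0 and 156 in cancer libraries (2.45-fold, adjusted p = 0.00784). In each of these 3 the cancer libraries lay below the naive ones. The median log2 fold change was -0.37, and in 8 genes all cancer libraries lay below all naive ones (5.48% of all genes). This gate also differed in depth, at 4038718 to 5816224 counts per library in cancer mice and 6607867 to 8839946 in naive mice. Mitochondrial shares were 1.43 to 3.23% in cancer and 0.618 to 1.24% in naive libraries, and with this share as a covariate edgeR called 0 of the 44 genes (median log2 -0.19), with 1280 of all genes at an unadjusted p under 0.05. With the 8 libraries of the gate alone it called 0 (1953 of all genes at an unadjusted p under 0.05), and DESeq2 on all libraries called 5. The gate differed as well in macrophage and dendritic markers (1394 to 2217 CPM in naive, 409 to 808 in cancer libraries), whose part was not tested. After thinning to equal totals 4 genes fell. The count was 2 without naive mouse 3, 7 without cancer mouse 8 and 2 without the libraries that stood apart.

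**Figure D3:**
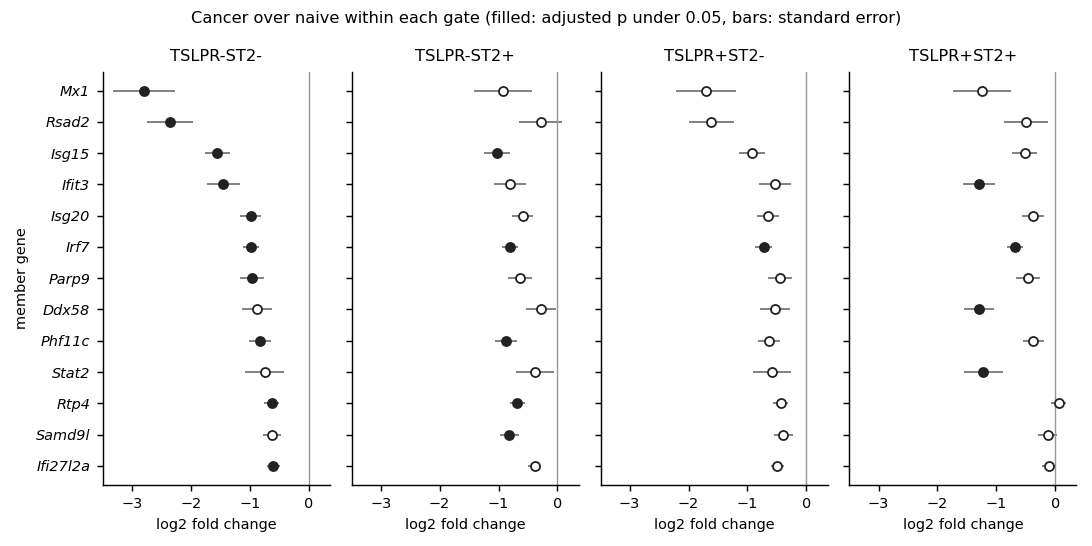
The log2 fold change of cancer over naive (x axis) with standard errors in each of the 4 gates (panels) for the 13 genes called in at least 1 gate (rows), filled where adjusted p was under 0.05. Irf7 is filled in all 4 panels, and Mx1 and Rsad2 reach -2.79 and -2.35 in TSLPR-ST2- Treg.

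Irf7 thus fell in all 4 gates, 4 genes (Isg15, Rtp4, Phf11c and Ifit3) in 2 gates, 8 in 1 gate and 31 in none, and 37 of 44 had a log2 fold change below 0 in all 4. The mean level of the 44 genes in naive mice was 7.57 ± 0.10 log2 CPM in TSLPR-ST2-, 7.41 ± 0.16 in TSLPR-ST2+, 7.31 ± 0.24 in TSLPR+ST2+ and lowest, 7.14 ± 0.16, in TSLPR+ST2- Treg (SD, n = 4 each). Neighbours in this order differed by about the spread within a gate. In cancer mice the gates lay closer, from 6.63 ± 0.082 in TSLPR+ST2- to 6.81 ± 0.16 in TSLPR-ST2+ Treg. The distance between naive and cancer means was greatest in TSLPR-ST2- Treg.

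**Figure D4:**
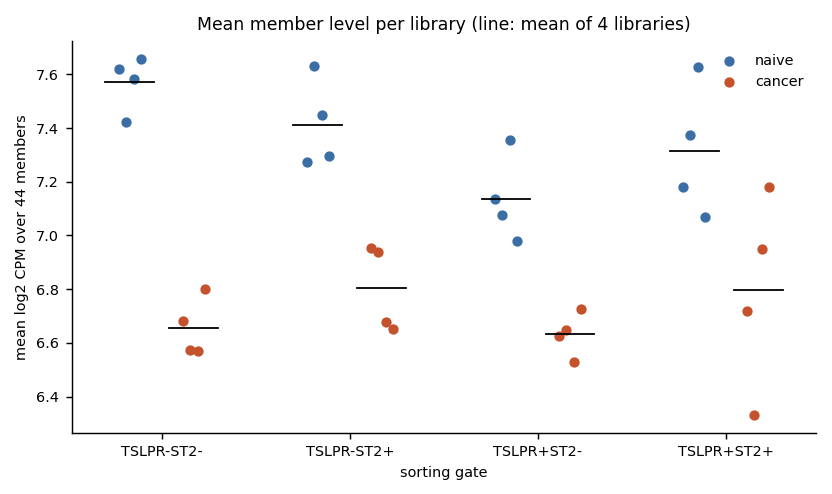
Mean log2 CPM over the 44 genes (y axis, not starting at 0) in each library by gate, naive in blue and cancer in orange, with a line at the mean of 4 libraries. Naive and cancer libraries overlap in TSLPR+ST2+ Treg alone, where cancer libraries reach 7.18.

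The receptor comparisons asked whether the genes differ with ST2 or TSLPR. Between ST2+ and ST2- Treg few did: 4 of 44 were higher in ST2+ cells, Rsad2, Oas1a, Parp9 and Cmpk2, none was lower, and 3.7% of all genes were higher. This is near the background, and the median log2 difference of the 44 was 0.03. Of all genes 2932 had an unadjusted p under 0.05, and of the 12 members among them Irf9, Ifi35 and Parp14 were the ones lower in ST2+ cells, and DESeq2 called 5 genes higher. Rsad2 ranged from 48.8 to 186 CPM (median 85.4) in 16 ST2+ and from 7.40 to 132 (median 47.2) in 16 ST2- libraries. The ranges overlapped, and Rsad2 was higher in 7 of 8 mice (2.23-fold, log2 1.15, SE 0.19, adjusted p = 0.000197). Oas1a was 1.60-fold higher (median 102 against 67.7 CPM, 7 of 8 mice, adjusted p = 0.00182) and Parp9 1.34-fold (7 of 8 mice, adjusted p = 0.0100). Cmpk2, 1.75-fold higher (adjusted p = 0.0453), lost the call in every leave-out of a mouse. Without the libraries that stood apart, 3 genes were higher.

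In the cancer mice alone, Rsad2 was 3.87-fold, Oas1a 2.18-fold and Mx1 2.50-fold higher in ST2+ cells (adjusted p = 5.82e-05, 0.000795 and 0.0435, where 1.43% of all genes were higher). Rsad2 had 95.4, 110.4, 74.0 and 86.3 CPM in TSLPR-ST2+ and 72.0, 48.8, 104 and 80.6 in TSLPR+ST2+ libraries of cancer mice. In their ST2- libraries it had 31.0, 21.1, 12.7 and 15.3 (TSLPR-) and 19.7, 40.2, 7.40 and 25.9 (TSLPR+), all below every ST2+ library. In naive mice edgeR called 0 of the 44 genes and 0.962% of all genes, with 3 at an unadjusted p under 0.05, of which Ifi35 had the smallest (log2 -0.24, adjusted p = 0.270). ST2+ libraries also held more macrophage and dendritic cell marker RNA, 319 to 2659 CPM over the 14 genes, against 3.39 to 1176 in ST2- libraries, and its part in these differences was not tested. Over all mice, 1 of 9 Treg markers was higher in ST2+ cells (Ikzf2) and 3 were lower (Foxp3, Il2ra and Cd3e).

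In TSLPR+ against TSLPR- Treg, 13 of 44 genes were lower and 2 higher, where 5.46% of all genes were lower and 7.97% higher. Those lower were the factors Irf7, Irf9 and Irf1, Usp18, Ifit2, Ifit3, Ifi35, Ddx58, Rtp4, Trim25, Phf11c, Sp100 and Ifi47, and their sizes were small, from 1.14-fold for Ifi35 to 1.51-fold for Ifit2. Sp100, a nuclear body protein, ranged from 581 to 950.4 CPM (median 805) in 16 TSLPR+ and from 798 to 1265 (median 1031) in 16 TSLPR- libraries, and was lower in 8 of 8 mice (1.28-fold, log2 -0.35, SE 0.051, adjusted p = 1.77e-05). Irf9 was lower in 7 of 8 mice (median 412 against 506 CPM, 1.23-fold, adjusted p = 0.000563). Ifi27l2a was higher, in 8 of 8 mice, with medians of 1243 against 993 CPM (1.23-fold, adjusted p = 0.000397), and so was Oas1a (1.58-fold, 8 of 8 mice, adjusted p = 0.00111). For each of these genes the ranges of the 2 sets of libraries overlapped. Markers of other cells also moved with TSLPR: 8 of 13 macrophage and dendritic, 6 of 8 B and plasma cell, 4 of 11 plasmacytoid dendritic and 3 of 8 epithelial markers tested were higher in TSLPR+ cells and none was called lower. Treg markers moved as well, with 6 of 9 higher in TSLPR+ cells (Cd3e, Cd3g, Trac, Ctla4, Ikzf2 and Tnfrsf18) and none lower. The macrophage and dendritic sums were 146 to 2217 CPM in TSLPR+ and 3.39 to 2659 in TSLPR- libraries, and the part of these markers was not tested.

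In naive mice 10 genes were lower and Oas1a higher in TSLPR+ cells, with 1.84% and 2.64% of all genes, and in cancer mice 3 were lower (Sp100, Ddx58 and Irf1) and 2 higher (Ifi27l2a and Oas1a), with 3.16% and 3.95%. With the mouse as a block Irf1 lost the call in cancer mice (adjusted p = 0.0528). Rtp4 was 1.42-fold lower in naive mice (adjusted p = 0.000519) and Usp18 1.60-fold (adjusted p = 0.00642). The same genes in cancer mice had log2 differences of -0.04 and -0.17 (adjusted p = 0.884 and 0.607). In the comparison over all mice, 7 genes were lower without mouse 1 or mouse 5 and 8 without mouse 4, and Irf9, Oas1a, Ifit2, Ifit3, Ifi27l2a, Rtp4, Sp100 and Ifi47 kept the call in each leave-out. Without the libraries that stood apart, 10 were lower and 2 higher.

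**Figure D5:**
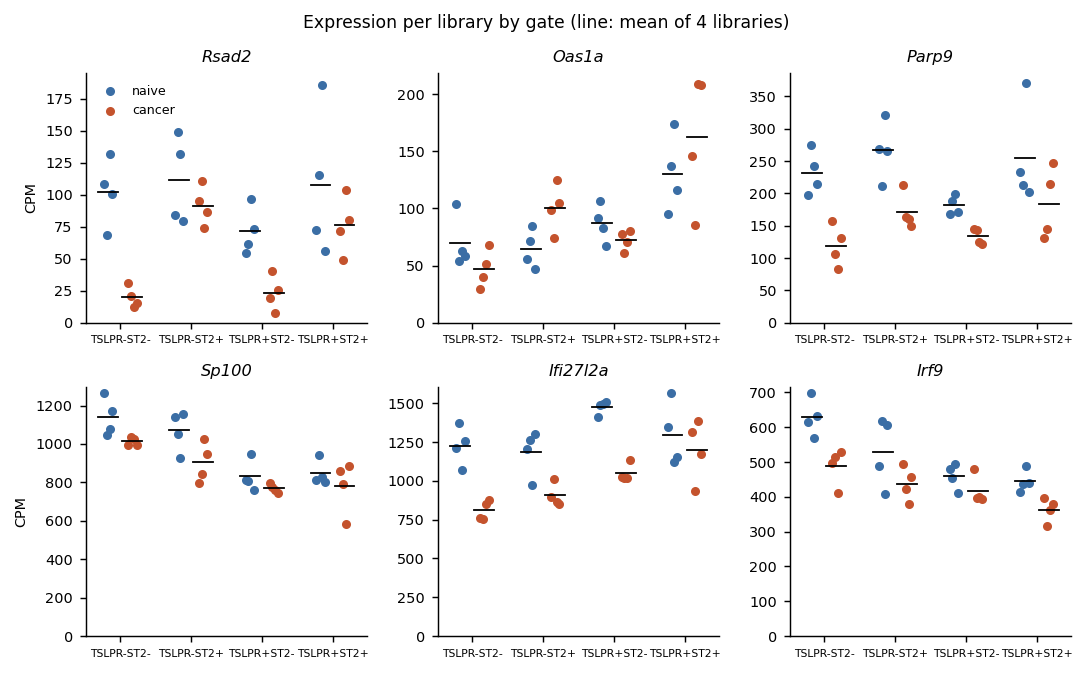
CPM (y axes, from 0) in each library by gate, naive in blue and cancer in orange, with lines at the means of 4 libraries, for the 3 genes with the smallest p in the ST2 comparison (top) and the TSLPR comparison (bottom). Rsad2 is low in the ST2- libraries of cancer mice, at means of 20.0 and 23.3 CPM, and Sp100 is lower in the TSLPR+ gates.

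Whether the change in cancer depends on the receptors was tested by interaction. edgeR called 0 of the 44 genes and 0% of all 14861 in either interaction. At an unadjusted p under 0.05 stood 7 members and 926 genes for ST2, and 5 members and 1178 genes for TSLPR. For ST2 the smallest p values belonged to Rsad2 (log2 difference 1.59, SE 0.37, adjusted p = 0.444), Oas1a (0.89, SE 0.27, adjusted p = 0.479) and Ifi27l2a (0.30, SE 0.11, adjusted p = 0.618). The difference is positive in all 3: Rsad2 and Ifi27l2a were less far below naive in ST2+ cells, while Oas1a had means of 69.8 CPM in naive and 47.3 in cancer TSLPR-ST2- libraries, and of 64.6 and 101 CPM in TSLPR-ST2+ libraries. Rsad2 was called by DESeq2 (adjusted p = 0.0181) and by no other setting, and without the libraries that stood apart edgeR again called 0 members in the ST2 and the TSLPR interaction. For TSLPR they belonged to Rtp4 (0.47, SE 0.13, adjusted p = 0.390), Samd9l (0.46, SE 0.16, adjusted p = 0.473) and Isg15 (0.57, SE 0.21, adjusted p = 0.523). The larger falls in TSLPR-ST2- Treg were not shown to differ from those in other gates. Each interaction is a mean over the other receptor, so this gate was not tested directly against the others.

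Upstream of these genes, the ligands were hardly seen in Treg. Of 21 interferon genes, 18, among them Ifnb1 and all of the Ifna genes listed, had no count in any of the 32 libraries, and Ifng, the type II ligand, was near the floor (1.19 and 1.42 CPM, adjusted p = 0.939). At 3 counts, the upper limit that a count of 0 allows in the smallest library, this depth bounds such a gene at 0.743 CPM, for counting error only. Trex1, a DNA exonuclease of the sensing list, was likewise at 0 in all 32 libraries, and how reads shared by near-identical or overlapping genes were counted is not stated in the labels. Of 11 receptor and signalling genes tested, 1 fell: Ifnar1, a receptor chain, had 221, 229, 283 and 249 CPM in naive and 176, 191, 157 and 166 in cancer mice, with no overlap (1.42-fold, adjusted p = 0.0379). Ifnar2, the other chain, averaged 122 ± 6.19 and 115 ± 13.5 CPM (adjusted p = 0.738) and did not pass, nor did Jak2 (adjusted p = 0.106) or Stat3 (adjusted p = 0.139).

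Of 16 nucleic acid sensing genes tested, 2 fell: Tlr7, an endosomal sensor of single-stranded RNA, from 71.5 ± 1.65 to 44.2 ± 4.38 CPM (1.62-fold, adjusted p = 0.0175), and Samhd1, which depletes nucleotides, from 1520.3 ± 85.5 to 1219 ± 38.0 (1.25-fold, adjusted p = 0.0222). Adar, which edits double-stranded RNA, and the kinase Ikbke did not pass (adjusted p = 0.0546 and 0.0721). Of 18 interferon-inducible GTPases 3 fell, Gbp9 (1.49-fold, adjusted p = 0.0321), Irgm2 (1.38-fold, adjusted p = 0.0318) and Gbp4 (1.42-fold, adjusted p = 0.0338). By edgeR none passed among 8 interferon regulatory factors outside the set, 11 feedback inhibitors and 10 MHC class I and antigen processing genes. An unadjusted p under 0.05 was found for 2, 3 and 2 of them, and DESeq2 called 2, 1 and 1 lower, where 2586 of 15338 genes had such a p and DESeq2 called 1329. Irf4, a factor of effector Treg (adjusted p = 0.0980), the feedback inhibitor Socs1 (adjusted p = 0.239) and the peptide transporter chain Tap1 (adjusted p = 0.155) were among those that did not pass. The median log2 fold changes were -0.29 for the GTPases (16 of 18 below 0, 11 at an unadjusted p under 0.05, 9 lower by DESeq2), -0.29 for sensing and -0.15 for receptors and signalling. For the last 3 lists they were -0.07, -0.04 and -0.02, against -0.53 for the 44 genes.

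The single library of Foxp3-negative CD44low T cells (7022068 counts) has no replicate, so its values are set beside the 16 naive Treg libraries with no test. Its level lay within the Treg range for 37 of the 44 genes, as for 16146 of 18931 genes passing the filter. Irf7 was within it, at 748 CPM. Above every naive Treg library were Oas2 (251 CPM, 95% Poisson interval 239.6 to 263, against 33.1 to 179.6), Oasl2 (231 CPM, 95% Poisson interval 220.3 to 243, against 93.0 to 218) and Ifit2 (156 CPM, 95% Poisson interval 147 to 166, against 50.4 to 132). Below every one were Ifi27l2a (941 CPM, 95% Poisson interval 919 to 964, against 989.5 to 1572), Isg20 (124 CPM, 95% Poisson interval 116 to 133, against 171 to 306), Oas1a (33.4 CPM, 95% Poisson interval 29.3 to 37.9, against 46.7 to 178) and Mx1 (41.3 CPM, 95% Poisson interval 36.7 to 46.3, against 41.6 to 178). The interval of Mx1 covers the lowest Treg library, so its place is not resolved. The intervals cover counting error only.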

How the data were processed

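RNA-seq was made from 33 libraries of sorted mouse colon T cells. The deposited values are whole-number counts of reads per Ensembl gene, not normalized, for 53465 genes. The submitters' processing notes list FastQC 0.11.3, SAMtools 1.2, Picard 1.134 and HTSeq 0.4.1, with the build GRCm38. The aligner, annotation release and strand setting were not given in the sources used here. Symbols and positions were taken from GENCODE M21 (GRCm38), and promoters from RefSeq (GRCm38.p6).

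Counts were summed per mouse (totals of 23102306 to 29564205) or kept per library (4038718 to 8839946) and tested with edgeR 4.0.16 in R 4.3.3, using TMM scaling, filterByExpr with a minimum count of 10 and total of 15, the robust quasi-likelihood test, and Benjamini-Hochberg adjustment over all genes at 0.05. The gate and receptor comparisons and the interactions came from one model of 8 groups over 32 libraries. Each standard error (SE) is the log2 fold change divided by the square root of F. Mean log2 CPM used a prior count of 2. The fits were tested on simulated counts with the same spread for all genes (negative binomial, size 10). This spread was set and not taken from the data, so the recovered shares do not give the power for the 44 genes. The sums recovered 5 of 80 genes changed 1.5-fold, 16 of 61 changed 2-fold and 58 of 59 changed 4-fold. In the TSLPR-ST2- gate 1 of 67, 20 of 68 and 62 of 65 were recovered, and for ST2 44 of 71, 57 of 61 and 68 of 68. Unchanged genes called were 3, 1 and 8.

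The gates of a mouse come from 1 animal, so the numbers pair libraries across gates. Residuals of libraries of a mouse correlated at a mean r of 0.00993 over all genes, with 3 of 48 pairs over 0.1, and at 0.0114 over the 44 members, with 19 of 48. For 144 pairs from different mice the mean r was -0.00331 and -0.00545. Pairs over 0.1 were not counted among these, and r over 44 genes varies more, so the 19 pairs do not show sharing within a mouse.

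Members and lists were chosen with earlier results of these data known. Values per mouse are given for the 12 members with the smallest p and for the 4 highest per length that did not pass, values by gate or receptor for the 3 with the smallest p in each comparison, and the values given beyond this rule (Mx1 in the TSLPR-ST2- gate, Rsad2 by gate and Usp18 by TSLPR among them) were chosen after they were seen. From each pathway list up to 4 genes with the smallest p are named, and Ifnar1 and Ifnar2 always. Some items are not reported here. Alternatives were RLE scaling, DESeq2 1.42.0, limma 3.58.1 (voom, mice as random effects), no filter, thinning, the mitochondrial share as a covariate, gate-only fits, the mean of the gate contrasts, the mouse as a block and leaving out each mouse. Leaving out 4 libraries was added after seeing the data. In the sums over gates this leaves 3 mice with fewer than 4 libraries. The Foxp3-negative CD44low T cell library entered no test.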

Additional observations from a re-analysis of the deposited data

Results flagged for a closer look

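Of 66 groups of 4 values looked at, 4 held a mouse or library whose gap to the nearest of the others took up nearly the whole range of the group. Chance gives about 1 such group in 20. Usp18 had 329.7 CPM in naive mouse 4, where the other naive mice had 378 to 386, and it stayed above all cancer mice. Irf7 had 765 CPM in the TSLPR-ST2+ library of naive mouse 4, above the 617 to 641 of the other naive mice in that gate. Ifi27l2a had 1411 CPM in the TSLPR+ST2- library of naive mouse 1, below the 1492 to 1507 of the others. In cancer mice of the same gate, Ifi27l2a had 1134 CPM in the library of mouse 8, above the 1019 to 1024 of the others. The 2 groups of Ifi27l2a remained apart.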

How the results depend on the processing

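No called gene turned its direction in any setting run. For the genes with the smallest p in each comparison, 540 values under alternatives gave 476 that kept their side of the limit, 58 that lost the call and 6 that gained it. In the sums over gates 20 genes fell, with 7 to 16 when a mouse was left out, 37 by DESeq2, 34 by the mean of the gate contrasts and 0 with the mitochondrial share as covariate; of all genes these settings called 1329, 1187 and 0, against 186. In TSLPR-ST2- Treg 10 fell, with 4 to 12 in the leave-outs and 20 by DESeq2, which called 142 of all genes against 31 by edgeR. With the mitochondrial share Parp9 and Phf11c lost the call in this gate. In TSLPR-ST2+ Treg 5 fell, with 0 to 5 in the leave-outs, 10 by DESeq2 and 0 with the gate alone. In TSLPR+ST2- Treg 1 fell, with 0 to 1 in the leave-outs, 5 by DESeq2, 0 with no filter and 2 without the 4 libraries that stood apart. The 1 gene called in a leave-out of this gate was Rsad2 and not Irf7. In TSLPR+ST2+ Treg 4 fell, with 2 to 7 in the leave-outs, 0 with the mitochondrial share, 0 with the gate alone and 2 without the 4 libraries. From TSLPR- to TSLPR+ 13 were lower, with 7 to 13 in the leave-outs. DESeq2 called 1 gene, Rsad2, in the ST2 interaction (edgeR: 0). Leave-outs and gate-only fits hold fewer samples; otherwise the cause was not tested.

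With the mouse as a replicate block, 4 genes were called for ST2, 16 for TSLPR (15 without the block, all shared) and 0 for either interaction. Of all genes the block fit called 740 for ST2 and 1860 for TSLPR, against 897 and 1996 without the block. In naive mice 10 of the 11 TSLPR calls held, and in cancer mice 4 of 5 for TSLPR and all 3 for ST2. With the mouse as a random effect, voom called 12, 7, 1 and 4 genes in the 4 gates in the order given. Where a count under an alternative stands without the count over all genes, as for voom, it describes the members alone.

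With 4 mice a group, small changes are poorly resolved: 19 genes had an unadjusted p under 0.05 in the sums without passing the adjusted limit. Low members such as Phf11d and Ifi44 rest on few counts. The labels give no day of sorting or sequencing, so day and status cannot be told apart.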
